A study of Mus musculus with 6 samples.

Results

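The genes described here are the 9 that build and control hypoxia-inducible factor (HIF) in the mouse. They are the alpha subunits Hif1a, Epas1 and Hif3a, the shared beta subunit Arnt, the prolyl hydroxylases Egln1, Egln2 and Egln3, the asparagine hydroxylase Hif1an, and Vhl. They were taken as a list of names, chosen with earlier results of these data known, and are 9 of 21853 protein-coding genes compared. For each of them the peaks of H3K27ac, an acetylation of histone H3 found at active promoters and enhancers, were located in control mouse embryonic stem cells (mESCs).

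The study treated mESCs of the E14 line (E14Tg2A Rosa26-Cre Oct4-IRES-Puro) for 120 min with the solvent DMSO as control, with 100 nM NVP-2, an inhibitor of the elongation kinase CDK9, or with 800 nM actinomycin D (ActD), which blocks RNA polymerases. It measured H3K27ac by chromatin immunoprecipitation and sequencing (ChIP-seq) in 2 samples of each, 6 in all, with human HEK293 cells as a spike-in. All samples come from the same cell line, grown in N2B27 medium with LIF and the kinase inhibitors PD0325901 and CT-99021. The data analysed here are the 22973 control peaks, which the authors list once for both control samples. The samples given NVP-2 or ActD are not analysed here, so every statement is about where peaks lie in control cells. The list gives positions only, with no height, count or score, so there is no spread between replicates, and a difference in width between peaks is a difference in length, not in the amount of acetylation.

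In cells with enough oxygen, the EGLN enzymes hydroxylate prolines of the HIF alpha subunits, VHL recognises the hydroxylated protein, and the ubiquitin ligase that VHL belongs to marks it for degradation. HIF1AN hydroxylates an asparagine in some of the same subunits and blocks the binding of these to the coactivators p300 and CBP. When oxygen falls these reactions slow, the alpha subunit pairs with ARNT, and the pair binds hypoxia response elements in DNA, whose core reads ACGTG or GCGTG. Most of this control acts on the proteins, and acetylation of the genes says where their promoters and nearby elements are marked, not how much factor is present.

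The cells carried the marks of their label. All 10 embryonic stem cell genes examined, Pou5f1, Nanog and Sox2 among them, had a peak within 1 kb of a transcription start site (TSS). So did 2 of 5 endoderm genes, 2 of 5 mesoderm genes, 2 of 5 neural genes, 1 of 5 trophoblast genes and 0 of 5 fibroblast genes, the last a check for feeder cells.

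A promoter is called marked here when at least 1 base of a peak lies within 1 kb of the TSS of any protein-coding isoform. Below, a TSS is that of a protein-coding isoform, so a peak at no TSS can lie at another kind of start. Of the 9 genes, 8 were marked and Egln3 was not, against 51.0% of all protein-coding genes (11149 of 21853). With 9 genes the 95% Wilson interval of this share is 56.5 to 98.0%, which covers counting error only. Counted by TSS, 12 of the 18 coding TSSs of the 9 genes were marked, against 49.7% of all 54361 coding TSSs. Starts that share a peak, as 4 of Arnt do, were each counted and are not independent. A peak inside the gene and away from every TSS was found in Egln2 and Egln3, 2 of 9 genes (Wilson interval 6.32 to 54.7%), against 17.0% of coding genes. A peak outside the gene within 50 kb of either end was found for 8 of 9 genes, all but Arnt, against 67.6% of coding genes, and such a peak at no TSS was found for 4 of 9 genes, namely Epas1, Hif3a, Egln3 and Vhl, against 45.1%. In all, 31 peaks lay in or near the 9 genes: 8 at their TSSs, 2 in their bodies and 21 outside, of which 11 lay at the TSS of another gene and 10 at none.

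**Figure D1:**
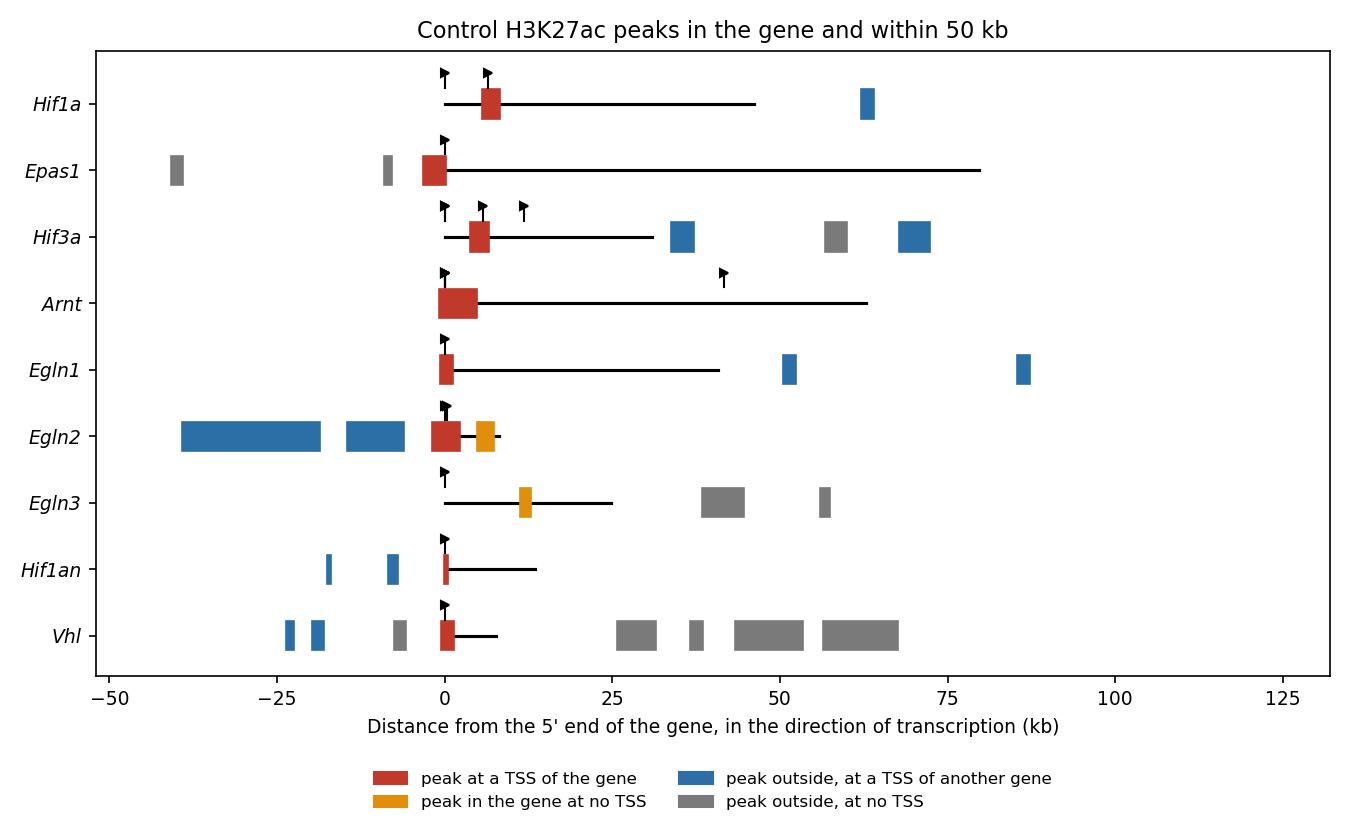
Control H3K27ac peaks of the 9 loci, drawn from the 5' end of each gene along the direction of transcription in kb. Black lines are genes, flags are coding TSSs and boxes are peaks drawn to scale. Red boxes stand at a TSS in 8 genes, Egln3 has an orange box inside the gene but none at its TSS, and Arnt has no box outside the gene.

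Hif1a encodes the alpha subunit found in nearly all cells. The gene (ENSMUSG00000021109.13) spans 46.2 kb on the plus strand of chr12:73901375-73947530 in mm10 (GRCm38), and its coding isoforms start at 2 places. The TSS of Hif1a-202 (ENSMUST00000110461.7), the isoform that covers most of the locus, was unmarked, and the nearest peak lay 5.53 kb away. That peak, chr12:73906909-73909694, surrounded the second TSS at 73907904, shared by Hif1a-201 and Hif1a-203, and so lay wholly in intron 1 of Hif1a-202. It was 2786 bp wide, at percentile 58.1 of marked coding genes, and reached 995 bp upstream and 1791 bp downstream of that TSS. The start nearest the 5' end of the locus was therefore bare, and the internal start carried the only mark in the gene.

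The 250 bases before each of these starts are shown since they belong to the same gene and differ in mark (GRCm38, plus strand, 5' to 3', at chr12:73901125-73901374 and chr12:73907654-73907903). Capitals mark the core of the hypoxia response element, ACGTG or GCGTG on either strand, and a palindrome CACGTG is counted as a single core.
Hif1a-202, unmarked start: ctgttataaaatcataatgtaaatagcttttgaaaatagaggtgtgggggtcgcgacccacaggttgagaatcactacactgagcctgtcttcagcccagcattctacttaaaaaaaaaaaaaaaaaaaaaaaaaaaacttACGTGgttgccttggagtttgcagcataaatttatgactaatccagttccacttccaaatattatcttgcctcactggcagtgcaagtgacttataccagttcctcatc
Hif1a-201, marked start: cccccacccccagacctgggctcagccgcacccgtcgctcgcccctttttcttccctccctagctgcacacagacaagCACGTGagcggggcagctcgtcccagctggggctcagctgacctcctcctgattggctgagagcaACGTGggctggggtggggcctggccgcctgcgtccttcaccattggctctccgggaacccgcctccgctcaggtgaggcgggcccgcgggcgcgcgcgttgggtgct
The window before the unmarked start was 37.6% G+C with 3 CpG dinucleotides and held 1 core, next to a run of A. That before the marked start was 70.4% G+C with 20 CpG and held 2 cores, one of them a palindrome. CpG-rich starts were marked more often throughout the genome: a peak lay at 14.9% of coding TSSs with 0 to 5 CpG in these 250 bases, 48.4% of those with 6 to 10, 76.2% of those with 11 to 20 and 84.6% of those with 21 or more.

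Epas1 encodes HIF-2 alpha, which is known for roles in endothelium and in the control of erythropoietin. The gene (ENSMUSG00000024140.10) spans 79.7 kb on the plus strand of chr17:86753700-86833410 and has a single coding TSS, which was marked by the peak chr17:86750444-86753924. This peak was 3481 bp wide (percentile 65.2) but lay almost wholly before the gene, with 3256 bp upstream and 225 bp downstream of the TSS. The downstream part was 6.46% of the peak, whereas the median over the 10425 coding genes with a TSS inside a peak was 61.2%, and Epas1 stood at percentile 1.03 of them. The peak ended within exon 1, and 0.282% of the gene was covered. Its window of 250 upstream bases was 75.2% G+C with 27 CpG. Beyond the promoter, 2 further peaks lay upstream, chr17:86744610-86745848 at 7.85 kb and chr17:86712922-86714673 at 39.0 kb. Both lay at no coding TSS and in no annotated protein-coding gene. All the peaks listed within 50 kb of Epas1 thus lay upstream of the gene or in its first exon.

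Hif3a encodes an alpha subunit with many isoforms, some of which are known to oppose the other alpha subunits. The gene (ENSMUSG00000004328.15) spans 30.9 kb on the minus strand of chr7:17031507-17062427, and its 4 coding isoforms start at 4 places, of which 1 was marked. The peak chr7:17055809-17058686, 2878 bp wide (percentile 59.2), surrounded the TSS of Hif3a-201 at 17056679. The starts of Hif3a-202 and Hif3a-204, at the 5' end of the gene, lay 3.74 and 3.70 kb from it, and that of Hif3a-203 lay 5.15 kb away on the other side. As in Hif1a, the start of the longest isoform, Hif3a-202 (ENSMUST00000108492.8), was bare, and the mark stood at an internal start, here over exon 2 of that isoform and parts of introns 1 and 2. Of this peak, 2007 bp lay upstream of the marked TSS and 871 bp downstream (30.3%, percentile 12.5).

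The 250 bases before the outer start of Hif3a are shown as an unmarked start that holds 2 cores (GRCm38, minus strand, chr7:17062428-17062677, capitals as above).
Hif3a-202, unmarked start: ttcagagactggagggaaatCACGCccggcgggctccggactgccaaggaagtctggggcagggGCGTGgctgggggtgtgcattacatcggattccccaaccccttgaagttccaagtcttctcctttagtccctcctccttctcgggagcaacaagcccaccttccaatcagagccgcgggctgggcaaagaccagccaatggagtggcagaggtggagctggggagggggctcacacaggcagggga
This window had 9 CpG and 62.0% G+C, and both of its cores were GCGTG.

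Downstream of Hif3a, on the Ppp5c side, 3 peaks lay within 50 kb. The nearest, at 2.87 kb, stood at the TSS of Ppp5c, which encodes a protein phosphatase. The next, at 25.8 kb, lay in Ppp5c at no TSS, and the last, at 36.9 kb, stood at the TSS of Ccdc8 and held 18 cores in 4618 bp.

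Arnt encodes HIF-1 beta, the partner of all 3 alpha subunits and of the aryl hydrocarbon receptor. The gene (ENSMUSG00000015522.18) spans 62.9 kb on the plus strand of chr3:95434388-95497240. Of its 5 coding starts, 4 lie close together at the 5' end and shared the peak chr3:95433519-95439227, while the start of Arnt-206 at 95476097 lay 36.9 kb from that peak and was unmarked. At 5709 bp this was the widest promoter peak of the 9 genes, at percentile 78.1 of marked coding genes. It reached 869 bp upstream and 4840 bp downstream of the first TSS, so that 84.8% of it lay over exon 1 and intron 1 (percentile 81.4), the reverse of the arrangement at Epas1. Arnt was the only one of the 9 genes with no peak within 50 kb outside the gene, and the nearest such peak was 76.3 kb away.

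Among 6633 coding genes with TSSs more than 2 kb apart, 3108 (46.9%) were marked at some TSSs and not at others, as were Hif1a, Hif3a and Arnt. A mark that misses the longest isoform altogether was found in 475 coding genes, 4.26% of the marked ones, and Hif1a and Hif3a were 2 of them. This share is over all marked genes, also those with a single start, so it cannot be set against the 46.9%. Curated RefSeq transcripts gave both genes a marked internal start as well, with the outer starts 5.59 and 3.74 kb from the peak.

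**Figure D2:**
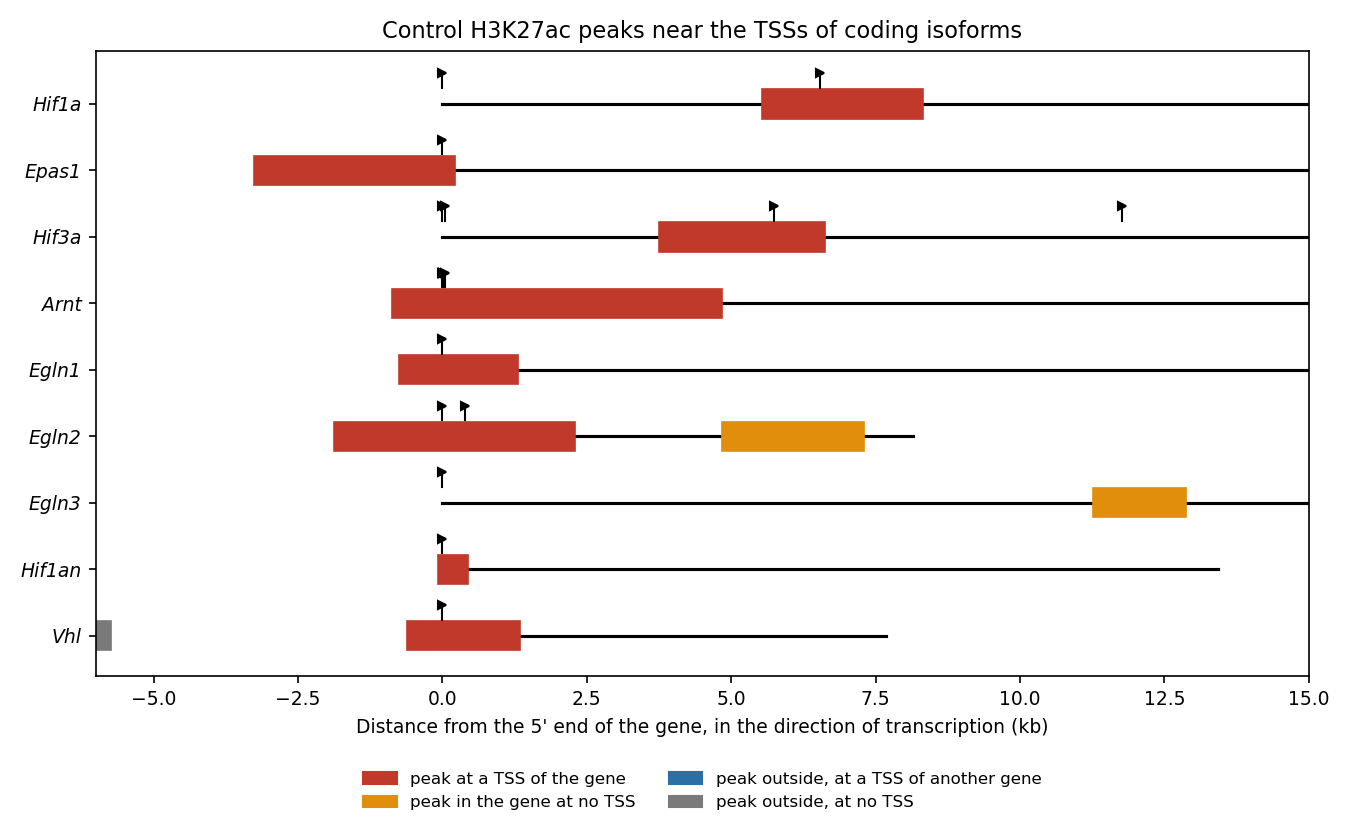
The same loci from 6 kb before to 15 kb after the 5' end of each gene, with coding TSSs as flags and peaks as boxes to scale, in kb along the direction of transcription. The outer starts of Hif1a and Hif3a lie outside any box, the Epas1 box lies almost wholly before the gene, the Arnt box almost wholly inside it, and the box of Egln3 begins 11.3 kb into the gene.

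The prolyl hydroxylases differed from each other: Egln1 had a promoter peak alone, Egln2 a promoter and a body peak, and Egln3 a body peak alone. Egln1 encodes PHD2, the main oxygen-dependent hydroxylase of HIF-1 alpha in most cells. The gene (ENSMUSG00000031987.6) spans 40.7 kb on the minus strand of chr8:124908587-124949324, and its single TSS was marked by the peak chr8:124948008-124950075, which was 2068 bp wide (percentile 47.2) with 751 bp upstream and 1317 bp downstream of the TSS. This was the most CpG-rich of the promoter peaks, with 70.5% G+C and 116 CpG per kb, and the 250 bases before the TSS held 47 CpG. No other peak lay in the gene. Both of its neighbouring peaks stood downstream at promoters that other genes share, Exoc8 and Sprtn at 9.68 kb and 2810004N23Rik and Gnpat at 44.7 kb.

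Egln2 encodes PHD1. It is a short gene (ENSMUSG00000058709.11, 8.15 kb on the minus strand of chr7:27158658-27166802) in a densely marked stretch. Its 2 coding starts lay in the same peak, chr7:27164513-27168688, which was 4176 bp wide (percentile 70.3), with 1886 bp upstream and 2290 bp downstream of the outer start, and which also reached into the end of the neighbouring gene Rab4b. A second peak, chr7:27159502-27161955, 2454 bp wide, lay inside the gene over exons 3 to 5, beginning 4.46 kb past the nearer start. Body peaks are rare in genes this short, found in 2.41% of coding genes under 10 kb against 50.1% of those of 100 kb or more. The peaks together covered 58.2% of Egln2 (percentile 94.6 of coding genes) and 31.0% of its flanks (percentile 94.8). Upstream, a peak of 8521 bp at 6.07 kb spanned the TSSs of Mia and Rab4b, and a peak of 20612 bp at 18.5 kb spanned those of BC024978 and Snrpa.

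The 250 bases before the outer start of Egln2 held the most cores of any of the 18 starts, 4 in all with 20 CpG, and are shown for that reason (GRCm38, minus strand, chr7:27166803-27167052, capitals as above).
Egln2, marked outer start: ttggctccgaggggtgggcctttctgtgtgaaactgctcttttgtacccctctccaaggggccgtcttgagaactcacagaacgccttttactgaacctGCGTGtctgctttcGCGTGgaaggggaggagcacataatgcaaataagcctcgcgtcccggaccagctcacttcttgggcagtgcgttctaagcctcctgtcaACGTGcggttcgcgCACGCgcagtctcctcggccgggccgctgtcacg

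Egln3 encodes PHD3, whose transcript is induced by HIF itself. The gene (ENSMUSG00000035105.5) spans 24.9 kb on the minus strand of chr12:54178981-54203860. Its single coding TSS was unmarked, which left Egln3 as the only one of the 9 genes with no marked TSS, and the nearest peak lay 11.3 kb away. The window before this TSS held 11 CpG and 53.2% G+C, in the class where 8 of 9 starts of these genes and 76.2% of all coding starts were marked. These 8 include the 4 outer starts of Arnt, which share a peak and are not independent. Egln3 was not without acetylation, however: the peak chr12:54190982-54192603, 1622 bp wide, lay in its intron 1 and touched no exon and no TSS. Body peaks were found in 19.6% of coding genes of 20 to 50 kb, and Egln3 was 1 of the 4 genes described here in that range and the only one of them with such a peak. Further downstream of the gene, the peaks chr12:54159176-54165531 (6356 bp, at 13.5 kb) and chr12:54146434-54147865 (1432 bp, at 31.1 kb) lay at no coding TSS and in no annotated protein-coding gene. All 3 peaks at Egln3 were thus away from the promoters of coding genes.

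The intronic peak of Egln3 held 5 cores, 3.08 per kb, about as many as the promoter peak of Vhl (3.06) and more than the promoter peaks of the other 7 marked genes. It was not the densest of these loci, since 6 peaks at the TSSs of neighbouring genes held more, from 3.41 per kb at Fancd2os to 4.85 at Sec31b. As background, a hypoxia response element of the human gene has been mapped to its first intron; whether any core shown here corresponds to it was not tested. Of the 5 cores, 3 were GCGTG and lay close together, 12.6, 12.6 and 12.5 kb past the TSS, and 2 were ACGTG, 11.7 and 11.3 kb past it, the last near the edge of the peak. The unmarked promoter and the stretches of the intronic peak around its 3 GCGTG cores and the inner ACGTG core are shown so that the 2 places can be compared (GRCm38, minus strand, chr12:54203861-54204110, chr12:54191207-54191360 and chr12:54192056-54192175, capitals as above).
Egln3, unmarked start: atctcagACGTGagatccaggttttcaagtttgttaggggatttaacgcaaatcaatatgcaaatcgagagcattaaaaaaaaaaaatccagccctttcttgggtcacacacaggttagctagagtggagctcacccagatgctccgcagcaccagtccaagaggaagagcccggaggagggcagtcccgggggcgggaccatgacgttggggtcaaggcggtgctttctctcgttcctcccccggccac
Egln3 intron 1, GCGTG cores: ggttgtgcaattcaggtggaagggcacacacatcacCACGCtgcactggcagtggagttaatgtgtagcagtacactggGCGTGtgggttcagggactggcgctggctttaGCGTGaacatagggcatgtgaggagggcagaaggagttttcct
Egln3 intron 1, ACGTG core: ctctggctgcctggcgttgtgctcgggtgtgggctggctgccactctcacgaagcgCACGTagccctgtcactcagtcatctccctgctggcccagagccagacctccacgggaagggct
A core alone says little, since 88.2% of the 2578 peaks of like width (within 10%) held at least 1. The farthest of the downstream peaks, of 1432 bp, was the only one of the 31 peaks with no core.

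Hif1an encodes FIH, the asparagine hydroxylase. The gene (ENSMUSG00000036450.4) spans 13.4 kb on the plus strand of chr19:44562850-44576274, and its TSS was marked by the narrowest promoter peak of the 9 genes, chr19:44562767-44563298, of 532 bp (percentile 2.52). The peak reached 83 bp upstream and 449 bp downstream of the TSS, over exons 1 and 2. The 250 bases before the TSS had 12 CpG and no core, and the peak itself held a single ACGTG. Upstream, 2 peaks stood at the promoters of other genes, 1460 bp wide at Ndufb8 (6.98 kb), a subunit of respiratory complex I, and 619 bp wide at Sec31b (16.9 kb), so the Hif1an peak was also narrower than its neighbours.

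Vhl encodes the receptor that brings hydroxylated HIF alpha to the ubiquitin ligase. The gene (ENSMUSG00000033933.13) is short, 7.68 kb on the plus strand of chr6:113623959-113631633, and its TSS was marked by the peak chr6:113623350-113625308, of 1959 bp (percentile 43.0), with 609 bp upstream and 1350 bp downstream. No peak lay elsewhere in the gene, but 7 lay within 50 kb outside it, the most among the 9 genes (percentile 98.3; the median coding gene had 1), and peaks covered 24.6% of the flanks against a median of 3.61%. Upstream, peaks stood at the TSSs of Brk1 (17.9 kb) and Fancd2os (22.5 kb), and another lay inside Brk1 at 5.74 kb. Downstream, 4 peaks lay in Irak2, a kinase of interleukin-1 and Toll-like receptor signalling, at no TSS, starting at 18.0, 28.9, 35.7 and 48.7 kb with widths of 5922, 1914, 10026 and 11159 bp. The dense acetylation beside Vhl was therefore mostly inside its neighbour, and the list does not say which gene such a peak acts on.

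All 8 marked promoters had a peak that touched no TSS window of another protein-coding or long intergenic noncoding RNA (lincRNA) gene. The same held for 70.0% of marked coding genes (7808). None of these 8 calls thus came from a promoter shared with such a neighbour. The 8 peaks had a median width of 2832 bp, against 2225 bp over all marked coding genes (quartiles 1570 and 4990 bp), and 7 of the 8 lay between the widths of Vhl and Arnt. The 10 embryonic stem cell genes had promoter peaks of 3638 to 71785 bp with a median of 28860 bp, so that most of them were wider than any of the 8.

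**Figure D3:**
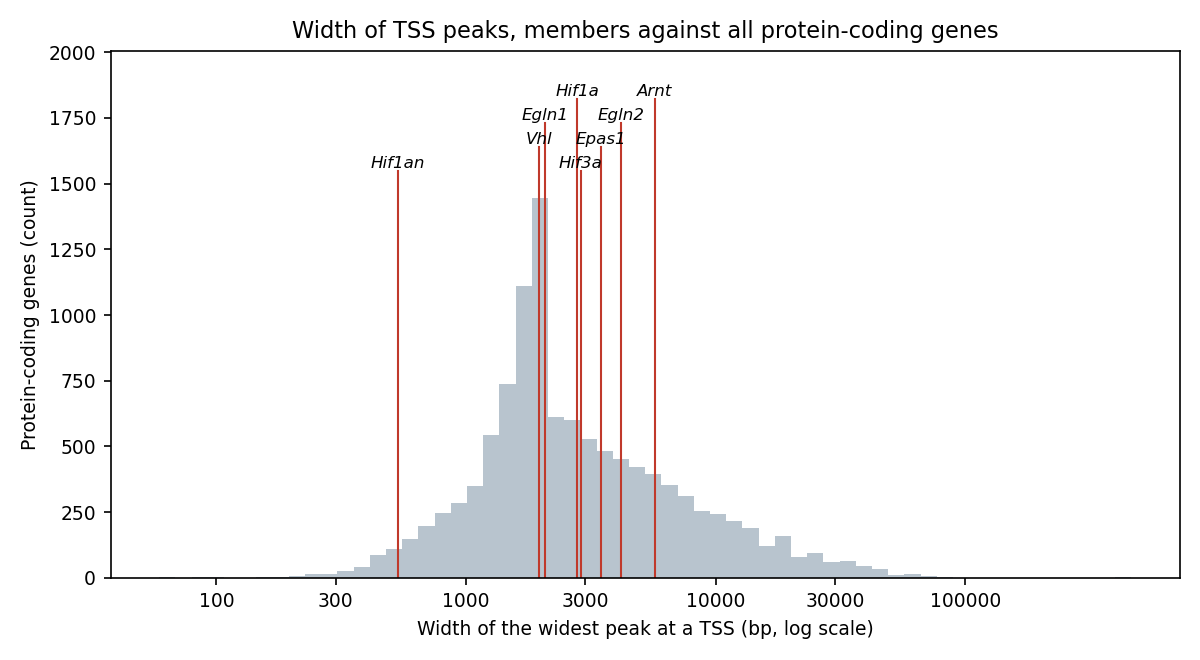
Histogram of the widest TSS peak of each marked protein-coding gene (width in bp on a log axis against the count of genes), with red lines for the 8 marked genes described here. Hif1an, at 532 bp, stands apart on the left, and the other 7 lie between 1959 and 5709 bp, in the bulk of the genome.

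The cores of the hypoxia response element were then counted over all the peaks of these loci. The 31 peaks in or near the 9 genes held 212 cores, 1.76 per kb, in 30 of 31 peaks, against 1.53 per kb and 89.7% over all 22973 peaks. Since every core contains a CpG, the share of CpG dinucleotides that lie in a core was also taken: it was 7.38% in these peaks and 7.43% in all peaks. The 8 promoter peaks held 1.91 cores per kb and 42.5 CpG per kb, against 1.82 cores and 28.5 CpG per kb in peaks at coding TSSs, and 4.49% of their CpG lay in a core against 6.40%. The 11 peaks at the TSSs of neighbouring genes had 7.57% of their CpG in a core, above that 6.40%. The 12 peaks of these loci at no TSS had 11.8%, against 9.73% in all peaks at no coding TSS, and the 2 body peaks among them had 11.9%. With both cores counted, only the promoter peaks of the 9 genes themselves thus lay below the like peaks of the genome. With ACGTG alone, these promoter peaks (1.99% against 2.28%) and the 12 peaks at no TSS (3.99% against 4.16%) both lay below. The 11 peaks at neighbouring TSSs lay above (3.08% against 2.28%). By how much such shares vary between sets of this size was not tested. In the 250 bases before the TSS, a core was found at 13 of the 18 starts, against 43.2% of all coding TSSs and 57.8% of the marked ones, and ACGTG at 4 of 18, against 17.8% of all and 22.6% of the marked ones. Several of these starts share bases, as the 4 outer starts of Arnt do, and are not independent. A match is a description of the letters and not evidence of binding.

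**Figure D4:**
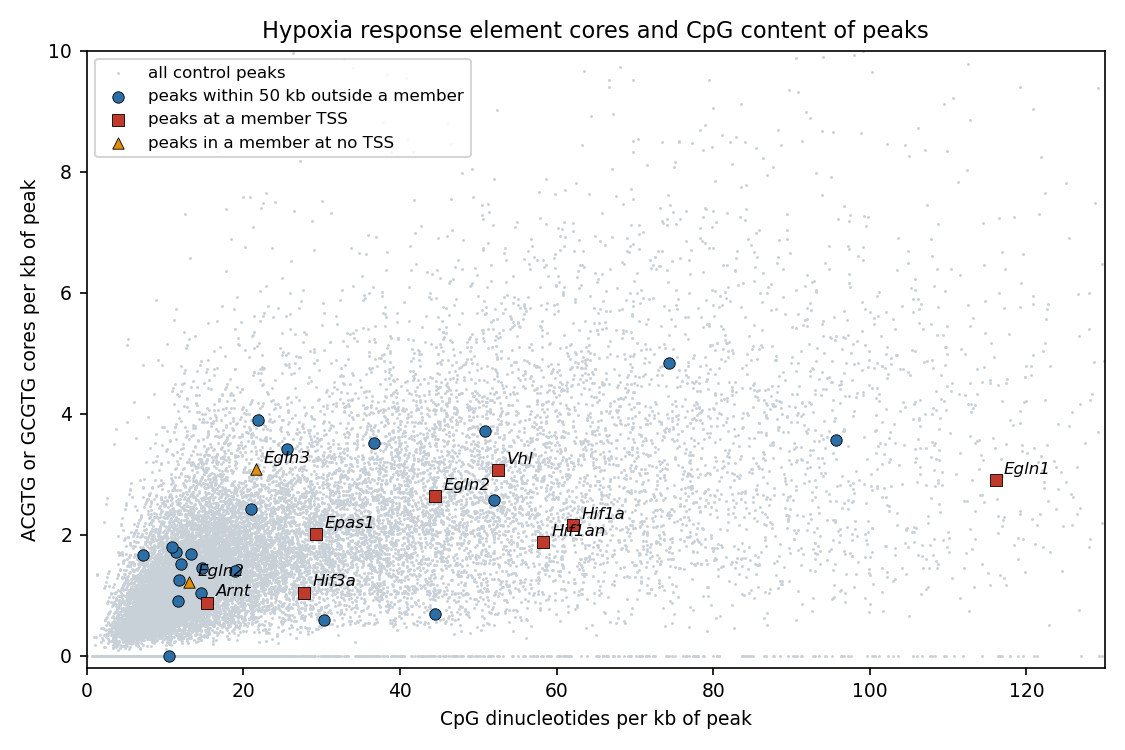
Cores (ACGTG or GCGTG, either strand) per kb of peak against CpG dinucleotides per kb of peak, with grey points for all control peaks and coloured points for the 31 peaks of the 9 loci. The axes leave out 157 of the grey peaks, Egln1 lies far to the right at 116 CpG per kb, and the intronic peak of Egln3 holds 3.08 cores per kb at 21.6 CpG per kb.

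The other genes of the pathway were taken as lists, chosen with earlier results of these data known, and are described by counts beside the share of all coding genes. The ligase partners of VHL were all marked, 6 of 6 (Elob, Eloc, Cul2, Rbx1, Nedd8 and Ube2m), with a median width of 4211 bp, against 51.0% of all coding genes; Elob, Eloc and Nedd8 are named after their values were seen. The widest was at Ube2m (32426 bp), which carries NEDD8 to cullins, followed by the cullin Cul2 (7934 bp) and the ring protein Rbx1 (4507 bp), while Nedd8 had the narrowest (2025 bp). The peak of Vhl itself (1959 bp) was narrower than that of each of these genes.

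Of 16 other regulators of HIF, 15 were marked, against 51.0% of all coding genes. The exception was Os9, whose TSSs lay at least 14.1 kb from a peak. The widest peaks stood at the chaperones Hsp90aa1 (44580 bp) and Hsp90ab1 (23010 bp), which stabilise HIF-1 alpha, and at Cited2 (6139 bp), which competes with it for p300 and CBP. The coactivators themselves, Ep300 and Crebbp, named after their values were seen, were marked by peaks of 5353 and 1862 bp.

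The other genes of the bHLH-PAS family, to which the HIF subunits belong or are related by their PAS domains, were marked in 9 of 15 cases (Wilson interval 35.7 to 80.2%), which is near the 51.0% of all coding genes. The widest peaks stood at the steroid receptor coactivators Ncoa3 (77746 bp), Ncoa1 (14409 bp) and Ncoa2 (2654 bp). The 6 unmarked genes, named after their values were seen, were Arntl2, Ahrr, Npas1, Npas3, Npas4 and Sim1, and the nearest peak to their TSSs ranged from 22.2 kb at Npas1 to 301.4 kb at Sim1. Arnt2, a close relative of Arnt, also named after its value was seen, was marked by a peak of 883 bp, against 5709 bp at Arnt.

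Of 44 known HIF target genes, 34 were marked (77.3%, Wilson interval 63.0 to 87.2%), against 51.0% of all coding genes, with a median width of 3452 bp. The widest peaks stood at the hexokinase Hk2 (53234 bp), the adenylate kinase Ak4 (39422 bp) and the glycolytic kinase Pgk1 (21658 bp). The 10 unmarked targets, named after their values were seen, were Car9, Car12, Ankrd37, Adm, P4ha2, Nos2, Flt1, Loxl2, Lox and Igfbp3, and of these Car9 lay closest to a peak, at 1.12 kb. Egln3 resembled these 10 in having a bare TSS, and whether such promoters gain a mark in hypoxia was not measured.

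**Figure D5:**
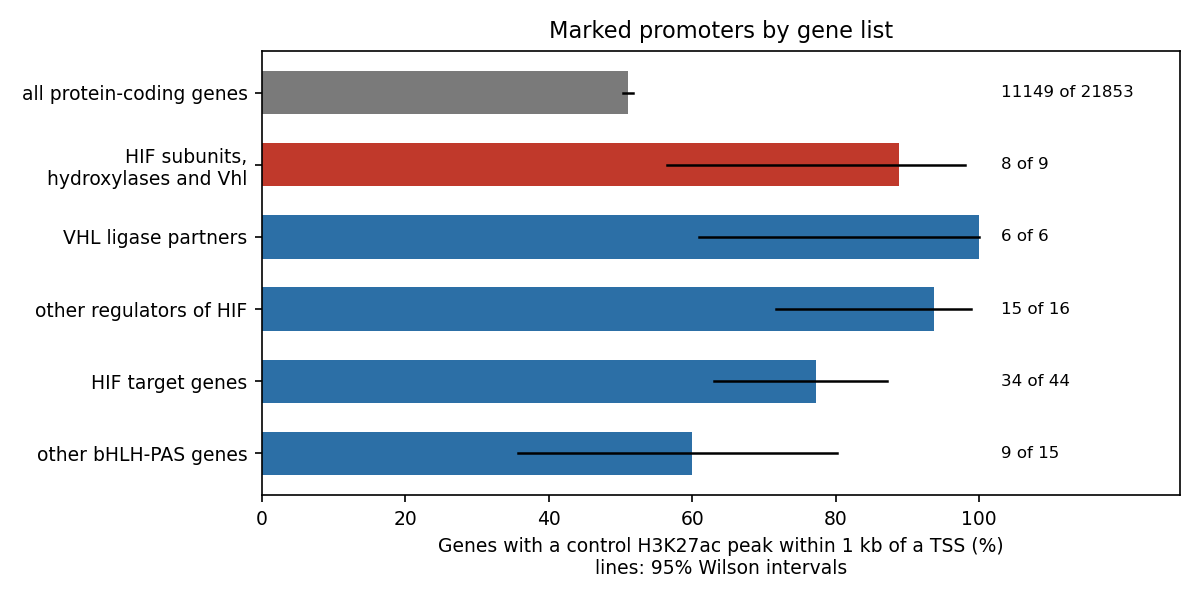
Share of genes with a control H3K27ac peak within 1 kb of a TSS, in percent, for all protein-coding genes and for each list, with 95% Wilson intervals as lines and counts on the right. The shares of the HIF genes (8 of 9), ligase partners, regulators and HIF targets lie above the background of 51.0%. That of the bHLH-PAS genes (9 of 15) lies nearer to it. The intervals cover counting error only, no test was run, and the lists were chosen with earlier results known.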

How the data were processed

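ChIP-seq of H3K27ac was done in mESCs with 2 samples for each of control, NVP-2 and ActD, and samples were grouped by their labels. The 1 file used holds control peaks pooled over both samples; per the file's layout and the methods, this deposited list holds positions (chromosome, start and end in mm10) and no other unit of measurement. The authors used Cutadapt for trimming, bwa meme for alignment to a combined mouse and human reference, Picard (2.9.1) for duplicates, samtools (1.4) to leave out reads of low mapping quality, and LanceOtron as peak caller; they joined peaks less than 2 kb apart and dropped peaks of low height or far from open chromatin. No gap in the list is under 2001 bp, so a wide peak can hold stretches without signal, and a gene without a listed peak may have had signal below the height limits. Depth cannot be read from positions, and nothing here measures replicate error.

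Peaks were compared with GENCODE M21 (GRCm38), an earlier release than the study's, over protein-coding genes with a coding transcript. Sequences and cores were read from the RefSeq GRCm38.p6 genome. Upstream sequence is printed for 5 of the 18 coding starts, and that of the other 13 is not reported here. A TSS window was 1 kb to each side and an overlap was at least 1 bp. Body peaks touch the gene and no coding TSS window, and flanks reach 50 kb. Only protein-coding and lincRNA genes were read from the annotation. Percentiles are among coding genes, or among marked ones for widths. Shares carry 95% Wilson intervals. No test was run, because the list is pooled and the members and lists were chosen with earlier results of these data known. The text names the 9 members, the genes at or around peaks within 50 kb of them, and, in each pathway list, the marked or the unmarked genes where these are 5 or fewer and otherwise the 3 with the widest promoter peak; other names are said to be chosen after their values were seen. Marker genes of the cell types were listed in the same way. The symbol Aldoa names more than 1 gene and counted as marked if any was. The functions were tested on simulated data. Alternatives were TSS windows of 500 bp, 2 kb or the TSS alone, the longest isoform, every transcript, curated RefSeq transcripts, peaks of at least 1 kb, overlaps of at least 500 bp, lincRNA genes, midpoints, and flanks of 20 and 100 kb. Python 3.11.15, numpy 2.4.6, scipy 1.17.1 and matplotlib 3.10.9 were used.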

Additional observations from a re-analysis of the deposited data

How the results depend on the processing

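Members with a marked promoter numbered 8 under windows of 500 bp and 2 kb, with the TSS inside a peak, with every transcript, with overlaps of at least 500 bp and with curated RefSeq transcripts, the last chosen after seeing the data. They numbered 6 with the longest isoform only, which loses Hif1a and Hif3a, and 7 with peaks of at least 1 kb, which loses Hif1an. The background share was 50.6% with 500 bp, 51.9% with 2 kb, 47.7% with the TSS inside a peak, 48.8% with the longest isoform, 51.8% with every transcript, 45.6% with peaks of at least 1 kb, 49.6% with overlaps of at least 500 bp, 43.6% with lincRNA genes added and 51.7% with RefSeq. Members with a body peak numbered 2 under all 4 alternatives tried. Members with a peak outside the gene numbered 8 within 20 kb, 9 within 100 kb and 8 with peaks of at least 1 kb. They numbered 4 when peaks at a coding TSS were left out, against 45.1% of coding genes. For the other body and flank alternatives no share of all coding genes is given. A wider flank takes in more peaks at any gene, so those counts are not read as traits of these genes. Cores per kb in the peaks of the loci were 1.15 times those in all peaks, and 1.17 times with ACGTG alone. Each of the 8 marked members had 1 peak at its TSSs, so taking the narrowest instead of the widest could not change the median width of 2832 bp. Over 116 listed genes, 16 of 812 calls changed. No paired analysis was possible because the list is pooled, and for the same reason no replicate could be left out. The cause of these shifts was not tested beyond the alternatives' own construction, which takes away or adds TSSs, genes, peaks or area.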

Other observations

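The 18 coding starts of the 9 genes can be set in the classes of CpG content used above. With 0 to 5 CpG in the 250 bases before the start, 0 of 1 was marked; with 6 to 10, 1 of 5; with 11 to 20, 8 of 9; and with 21 or more, 3 of 3. In the class of 11 to 20 CpG, the unmarked start was that of Egln3, with 11. The 8 marked starts of that class include the 4 outer starts of Arnt, which share a peak and are not independent. The 12 peaks of the loci that lie at no TSS had 12.3 CpG per kb and 1.45 cores per kb, against 12.7 and 1.24 in all peaks at no coding TSS. The direction turned with ACGTG alone, at 0.490 per kb against 0.528. Of the 12 peaks, 11 held a core of either kind.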
